A study of Homo sapiens with 12 samples.

Results

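MB157R cells with a doxycycline-inducible empty vector (iEV) were compared with parental MB157 cells that carried the same vector. The pathways and cell functions described were chosen from outside EMT, NOTCH signalling and stem cell markers. Some genes named below still belong to the study's NOTCH signature, among them CYP1B1, OLFM4, ZNF750, E2F2, KRT6A, KRT6B, MYEOV and MT1X. The comparison used 6 of the 12 libraries of the series, 3 per line, and 11435 of the 29744 entries of the count table, which are the genes that the authors' filter kept for this pair of groups. MB157 is an established triple-negative breast cancer (TNBC) cell line, given as wild type in the labels. The study describes MB157R as the γ-secretase inhibitor (GSI)-resistant derivative of MB157, obtained by culture in LY3039478 at 1 µM over 25 weeks. Both groups received 1 µg/ml of doxycycline for 72 h, and their vector expressed neither SOX2 nor N1-ICD. The other 6 libraries of the study came from MB157 cells with inducible SOX2 (iSOX2) and MB157R cells with inducible N1-ICD (iN1-ICD). The sources used here do not say whether MB157R was cloned or whether GSI was present when RNA was taken. The tables hold counts per gene without alleles, so whether the genomes of both lines match was not tested.

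GSI block the γ-secretase complex, which cuts NOTCH and other membrane proteins and sets the intracellular domain of NOTCH free to act in the nucleus. TNBC lacks the estrogen and progesterone receptors and amplified HER2, and its cells often depend on growth factor receptors, on inflammatory signals such as NF-κB and interleukins, and on contact with the basement membrane. Ribosomes, mitochondria and the enzymes of lipid and amino acid synthesis supply the material for growth.

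Libraries held between 32773820 and 49055208 estimated counts, and the tested genes took 92.21 to 93.82% of them. Levels are counts scaled to library size by the TMM method (CPM), as the value of each library or as mean ± SD of n = 3 libraries. Higher and lower always mean MB157R relative to MB157, and paired values give MB157 first. Over a group, 3 counts correspond to 0.0257 CPM in MB157 and 0.0224 CPM in MB157R. Where a group had 0 counts, a fold is a lower bound against that floor, and with 1 to 3 counts the ratio is given with its interval. Floors and intervals cover counting error only. Folds of genes only a few counts above this limit in 1 group, such as LAMA1 and GDA, have no interval and are imprecise too. The 9 markers of breast epithelium were all above 1 CPM in both lines, with a summed level of 2940 to 2950 CPM in MB157 and 5780 to 5920 CPM in MB157R. ESR1 stood at 0.660 and 1.84 CPM and PGR at 2.87 and 3.58 CPM in MB157 and MB157R, while ERBB2 stood at 126 and 165 CPM. Of the markers of T and NK cells, B cells and macrophages, CD3D, CD3E, CD2, NKG7, MS4A1, AIF1 and C1QA had 0 counts in both lines. The summed level of the 5 T and NK cell markers was 4.41 to 4.80 CPM in MB157 and 0.363 to 0.581 CPM in MB157R, all of it CD8A, and that of the 6 macrophage markers was 40.4 to 44.0 CPM and 4.65 to 6.06 CPM, mostly CD14 in MB157. The 3 B cell markers summed to at most 0.883 CPM, the 6 endothelial markers to 7.27 CPM and the 4 melanocyte markers to 1.40 CPM in any library. Of the 8 fibroblast markers, 4 were under 1 CPM in both lines, and their summed level was 42.1 to 49.6 CPM in MB157 and 75.9 to 88.8 CPM in MB157R. The part of other cells in the results below was not tested.

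Most expressed genes differed between the lines. edgeR's quasi-likelihood test called 10318 genes at a Benjamini-Hochberg adjusted p under 0.05, which is 90.2% of those tested. Of these, 5141 (45% of tested genes) were higher and 5177 (45.3%) were lower in MB157R. The paper describes a single resistant line. The test therefore rests on the spread between libraries of a line and not between separate selections in GSI. At least 2-fold differences, used below for groups of genes, were found in 2372 genes that were higher (20.7%) and 2072 that were lower (18.1%). For 90.9% of tested genes no library of one line reached into the range of the other, and this holds for every gene called higher or lower by name below. The filter kept genes that only one line expresses, and such a gene had to differ, so counts over tested members of a list are descriptions, read beside the same share over all tested genes. The plot of gene lists sets these shares side by side.

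Interferon-stimulated genes, which cells switch on in response to interferon, were mostly higher in MB157R. Of the 35 tested among 51 listed, 28 were higher, 6 were lower and 1 was not called, with 23 higher and 3 lower members differing by at least 2-fold and a median log2 fold change of 1.78, where that of all tested genes was -0.00. With every entry tested, the list had 32 higher and 7 lower without the filter on low counts. In these bulk libraries fewer cells with a transcript and less of it per cell cannot be told apart. LGALS3BP, which encodes a secreted galectin-3 ligand, stood at 0.669, 0.703 and 0.994 CPM in MB157 and 312, 309.7 and 303 CPM in MB157R. Every MB157R library lay far above every MB157 library, and the gene was 391-fold higher (log2 fold change 8.59 ± 0.072 SE, edgeR adjusted p = 4.8e-17). OAS3, which makes the 2-5A signal that activates RNase L, stood at 0.791, 1.17 and 1.09 CPM in MB157 and 68.4, 62.4 and 65.9 CPM in MB157R and was 64.4-fold higher (log2 fold change 5.98 ± 0.092 SE, edgeR adjusted p = 3.3e-15). The guanylate-binding protein gene GBP2 (0.220 ± 0.0377 CPM against 48 ± 4.47 CPM) and IFI44 (0.286 ± 0.0605 CPM against 44.7 ± 1.30 CPM) were likewise higher. A few members went the other way. IFI6, a mitochondrial survival protein, was 2.25-fold lower. BST2, which encodes the virus-tethering protein tetherin and is named here after its values were seen, stood at 8.76, 9.47 and 9.89 CPM in MB157 and 0.0454, 0.0968 and 0.0206 CPM in MB157R and was 173-fold lower (log2 fold change -7.41 ± 0.25 SE, edgeR adjusted p = 5.6e-12).

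Promoter windows of 300 bases, from 250 before to 50 after the start site (RefSeq, GRCh38.p14), were found for 6603 of the tested genes. They were searched on both strands for the core letters of the interferon-stimulated response element. It occurred in 183 windows (2.77%), and in 16 of the 21 windows of interferon-stimulated genes (76.2%). Of these 16 genes, 12 were higher and 4 were lower in MB157R, so members with the same letters stood on both sides. For 3 of these genes the 250 bases before the start site are shown with the element in capitals, the first pair from genes that were higher in MB157R and the last from BST2, which was lower. These stretches lie at chr17:78979924-78980173 (- strand), chr12:112938224-112938473 (+ strand) and chr19:17405631-17405880 (- strand), and the first match begins 58, 143 and 130 bases before the start site.
LGALS3BP: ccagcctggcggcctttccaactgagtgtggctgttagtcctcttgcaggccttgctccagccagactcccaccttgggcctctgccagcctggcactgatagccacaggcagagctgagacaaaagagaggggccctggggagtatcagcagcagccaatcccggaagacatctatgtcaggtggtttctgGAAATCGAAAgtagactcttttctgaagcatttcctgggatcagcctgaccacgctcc
OAS3: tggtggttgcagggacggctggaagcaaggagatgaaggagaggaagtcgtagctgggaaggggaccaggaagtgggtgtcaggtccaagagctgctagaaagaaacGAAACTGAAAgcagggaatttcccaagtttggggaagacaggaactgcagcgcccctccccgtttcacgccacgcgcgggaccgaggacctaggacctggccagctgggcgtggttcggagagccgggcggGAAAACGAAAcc
BST2: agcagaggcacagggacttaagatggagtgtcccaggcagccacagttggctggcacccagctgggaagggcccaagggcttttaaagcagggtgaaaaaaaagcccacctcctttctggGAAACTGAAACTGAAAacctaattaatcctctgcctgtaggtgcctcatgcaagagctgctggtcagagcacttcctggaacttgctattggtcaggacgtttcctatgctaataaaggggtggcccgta
OAS3 holds the element at 2 positions, and in BST2 there are 2 matches that overlap. A match describes letters and does not show that a factor binds there.

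Genes for secreted inflammatory signals were mostly higher in MB157R. Of the 27 tested among 38 listed cytokines and chemokines, 20 were higher, 4 were lower and 3 were not called, with 20 higher and 4 lower members differing by at least 2-fold. CXCL1, a chemokine that attracts neutrophils, stood at 0.213, 0.492 and 0.533 CPM in MB157 and 609, 587 and 605 CPM in MB157R, and it was 1453-fold higher (log2 fold change 10.44 ± 0.091 SE, edgeR adjusted p = 5.5e-17). IL1B, the secreted fever-inducing interleukin, stood at 0, 0.0469 and 0 CPM in MB157 and 526, 503 and 581 CPM in MB157R. A single MB157 library held reads of it, which gave a ratio of MB157R to MB157 of 31400 (95% counting interval 8710 to 260000). The granulocyte growth factor genes CSF2 and CSF3 had 0 counts in MB157. CSF2 stood at 143, 148 and 150.1 CPM in MB157R and lay at least 5735-fold higher, and CSF3 was at least 3865-fold higher. IL8, the gene of the chemokine CXCL8, stands outside the filtered table under this older symbol and is named after its values were seen, with 0.852, 0.727 and 0.655 CPM in MB157 and 605, 590 and 582 CPM in MB157R. The membrane-bound chemokine gene CX3CL1 went the other way, with 42.7, 38.8 and 41.9 CPM in MB157 and 0.0681, 0.0242 and 0.0412 CPM in MB157R, and was 924-fold lower (log2 fold change -9.75 ± 0.15 SE, edgeR adjusted p = 2.7e-15).

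Genes of the NF-κB pathway, the route by which such cytokines are induced and restrained, followed the same direction. Of the 24 tested among 25 listed, 20 were higher, 2 were lower and 2 were not called, with 14 higher and 0 lower members differing by at least 2-fold and a median log2 fold change of 1.17. TNFAIP3, which encodes the NF-κB inhibitor A20, stood at 7.43, 6.61 and 7.03 CPM in MB157 and 358, 359 and 353 CPM in MB157R and was 50.8-fold higher (log2 fold change 5.67 ± 0.047 SE, edgeR adjusted p = 4.5e-17). BIRC3, an ubiquitin ligase of the TNF receptor complex, stood at 2.16, 2.20 and 1.65 CPM in MB157 and 132, 130.3 and 139.7 CPM in MB157R and was 66.9-fold higher. NFKBIZ (4.75 ± 0.462 CPM against 178 ± 8.03 CPM), a nuclear cofactor of NF-κB, and ICAM1 (3.58 ± 0.217 CPM against 111 ± 8.75 CPM), the leukocyte adhesion receptor, were also higher. Sensors of microbial and cellular damage were divided. Of the 21 tested among 29 listed, 14 were higher, 7 were lower and 0 were not called, with 8 higher and 4 lower members differing by at least 2-fold. TLR4, the receptor for bacterial lipopolysaccharide, stood at 0 counts in each MB157 library and 69.1, 66.6 and 63.5 CPM in MB157R and lay at least 2580.1-fold higher. IRAK2, a kinase below Toll-like and interleukin-1 receptors, stood at 7.27, 8.18 and 7.71 CPM in MB157 and 729.8, 729 and 807 CPM in MB157R and was 97.8-fold higher (log2 fold change 6.61 ± 0.062 SE, edgeR adjusted p = 7.9e-17). IFI16, a nuclear DNA sensor, was 2544-fold higher. TLR1 (21.2 ± 1.31 CPM against 1.88 ± 0.0880 CPM), TLR5 (31 ± 2.15 CPM against 3.66 ± 0.468 CPM) and MAVS (245 ± 10.7 CPM against 114 ± 9.33 CPM), the adaptor for RNA sensors, were lower.

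Complement and clotting factors were higher almost throughout. Of the 21 tested among 29 listed, 19 were higher, 2 were lower and 0 were not called, with 16 higher and 0 lower members differing by at least 2-fold (20 higher and 1 lower without the filter on low counts). C3, the central complement component, stood at 46.6, 45.3 and 43.3 CPM in MB157 and 1282, 1234 and 1409 CPM in MB157R and was 29-fold higher (log2 fold change 4.86 ± 0.057 SE, edgeR adjusted p = 3.4e-16). PLAU, the urokinase that activates plasminogen, stood at 8.70, 9.17 and 7.44 CPM in MB157 and 1158, 1105 and 1101 CPM in MB157R and was 133-fold higher (log2 fold change 7.05 ± 0.065 SE, edgeR adjusted p = 6.8e-17). THBD (0 counts against 70.4 ± 7.23 CPM), which encodes thrombomodulin, and TFPI2 (0.153 ± 0.0993 CPM against 54.2 ± 0.946 CPM), a protease inhibitor, were detected mainly in MB157R. Among 16 tested surface ligands that T and NK cells read, 13 were higher, 1 was lower and 2 were not called. CD274, which encodes the T cell inhibitor PD-L1, stood at 0.609, 0.281 and 0.436 CPM in MB157 and 75.7, 80.0 and 77.9 CPM in MB157R and was 176-fold higher (log2 fold change 7.49 ± 0.11 SE, edgeR adjusted p = 1.7e-15). VTCN1, which encodes the inhibitory ligand B7-H4, stood at 141, 138 and 136 CPM in MB157 and 0, 0.0484 and 0 CPM in MB157R, with a ratio of MB157 to MB157R of 9230 (95% counting interval 2550 to 76200). PVR, a ligand of NK cell receptors, differed by a log2 fold change of -0.04 ± 0.037 (SE), which did not pass the test (edgeR adjusted p = 0.27). Genes of MHC class I presentation were split, with 10 of 19 higher and 8 lower. B2M, the invariant chain of class I, had 0 counts in MB157 and was expressed in MB157R, as given below with its neighbours. The peptide trimming enzymes ERAP1 (16.1 ± 0.899 CPM against 75.2 ± 4.04 CPM) and ERAP2 (11.7 ± 0.122 CPM against 79.1 ± 4.45 CPM) were higher, HLA-F (8.37 ± 0.593 CPM against 2.27 ± 0.358 CPM) was lower, and the chaperones CALR (1206 ± 27.1 CPM against 695 ± 21.4 CPM) and CANX (1285 ± 28 CPM against 891 ± 16.4 CPM) were lower by less than 2-fold.

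**Figure D1:**
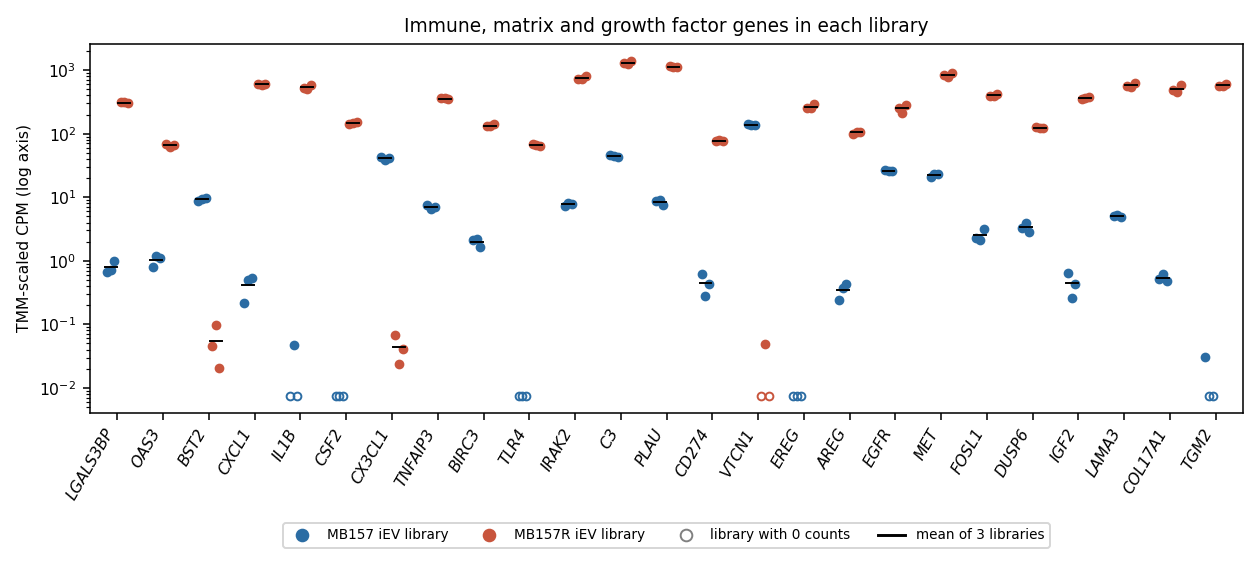
TMM-scaled CPM on a log axis of 25 immune, matrix and growth factor genes in each of the 3 MB157 iEV libraries (blue) and 3 MB157R iEV libraries (red), with bars at the group mean where no library was at 0; open circles at the lower edge are libraries with 0 counts and have no height of their own. BST2, CX3CL1 and VTCN1 are higher in MB157 and the other 22 genes are higher in MB157R, with no overlap between the lines.

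Epithelial products differed in both directions. Keratins form the intermediate filaments of epithelia. Of the 15 tested among 56 listed, 10 were higher, 5 were lower and 0 were not called, with 9 higher and 4 lower members differing by at least 2-fold (14 higher and 13 lower without the filter on low counts). KRT17, a keratin of wounded and basal epithelium, stood at 17.6, 18.3 and 17.2 CPM in MB157 and 479, 462 and 481 CPM in MB157R and was 26.8-fold higher (log2 fold change 4.74 ± 0.043 SE, edgeR adjusted p = 5.9e-17). KRT23 (59.5 ± 4.43 CPM against 0.646 ± 0.205 CPM), KRT14 (57.9 ± 2.76 CPM against 7.16 ± 0.454 CPM), KRT16 (44.2 ± 1.36 CPM against 9.25 ± 0.115 CPM) and KRT6B (39.6 ± 1.33 CPM against 7.59 ± 0.928 CPM) were lower. KRT6A (1.45 ± 0.259 CPM against 22.1 ± 0.942 CPM) was higher, so the near-identical paralogs KRT6A and KRT6B moved in opposite directions, and reads shared between them could be split either way. Desmosomes anchor keratins at cell contacts. Their core protein gene DSP stood at 1513, 1559 and 1535 CPM in MB157 and 249, 210.2 and 238 CPM in MB157R and was 6.60-fold lower (log2 fold change -2.72 ± 0.056 SE, edgeR adjusted p = 4.6e-14), and the desmosomal cadherin genes DSC3 and DSC2 were 4.81-fold lower and 3.08-fold lower, while PKP2 (6.98 ± 0.141 CPM against 54.2 ± 1.10 CPM) and JUP (229 ± 8.70 CPM against 698 ± 12.5 CPM) were higher. Of the 19 tested among 35 listed cornified envelope and squamous genes, 12 were at least 2-fold higher and 6 at least 2-fold lower (16 higher and 10 lower without the filter on low counts). SCEL, which encodes the envelope precursor sciellin, was at least 3202-fold higher, and the gap junction gene GJB2 was 70.9-fold higher. ZNF750, a regulator of epidermal differentiation, stood at 23, 23.8 and 24.9 CPM in MB157 and 0.136, 0.194 and 0.144 CPM in MB157R and was 151-fold lower.

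Mucins and secreted epithelial proteins lay on both sides as well. Each of the 9 tested members differed by at least 2-fold, 4 higher and 5 lower (5 higher and 8 lower without the filter on low counts). LCN2, a siderophore-binding lipocalin of inflamed epithelium, stood at 2.25, 1.78 and 2.23 CPM in MB157 and 2132, 2134 and 2370.4 CPM in MB157R and was 1059-fold higher (log2 fold change 10.06 ± 0.081 SE, edgeR adjusted p = 3.7e-17). MUC4, a membrane mucin, was at least 2469-fold higher. The gel-forming mucin MUC5B had 132, 117 and 119 CPM in MB157 and 0 counts in each MB157R library and was at least 5452-fold lower. OLFM4, a secreted glycoprotein of crypt cells, stood at 183, 192 and 170.2 CPM in MB157 and 0.817, 0.460 and 0.556 CPM in MB157R and was 298-fold lower. Of the 18 tested among 26 listed serpins and other protease inhibitors, 15 were higher, 3 were lower and 0 were not called. SERPINB2, the plasminogen activator inhibitor of inflamed cells, was 2589.9-fold higher, and SPINT2, an inhibitor of membrane serine proteases, was 3.12-fold lower (log2 fold change -1.64 ± 0.04 SE, edgeR adjusted p = 2.7e-13). The kallikrein protease genes KLK10 (14.1 ± 0.719 CPM against 0.702 ± 0.349 CPM) and KLK6 (8.70 ± 0.536 CPM against 2.86 ± 0.462 CPM) were lower.

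Genes for contact with the basement membrane were mostly higher in MB157R. Of the 14 tested among 24 listed integrins, the receptors that bind matrix, 11 were higher, 1 was lower and 2 were not called, with 11 higher and 1 lower members differing by at least 2-fold (12 higher and 6 lower without the filter on low counts). The summed level of the tested members was 718 CPM in MB157 and 7580 CPM in MB157R. The α subunit gene ITGA3 stood at 22.9, 24.5 and 22.6 CPM in MB157 and 1680.1, 1604 and 1801 CPM in MB157R and was 72.5-fold higher (log2 fold change 6.18 ± 0.058 SE, edgeR adjusted p = 7.9e-17), and ITGB4, the β subunit of hemidesmosomes, was 12.5-fold higher. ITGA9 went the other way, 40.4 ± 1.51 CPM against 0.160 ± 0.0873 CPM. LAMA3, a chain of epithelial laminin, stood at 5.05, 5.28 and 4.92 CPM in MB157 and 561, 540.0 and 623 CPM in MB157R and was 113-fold higher (log2 fold change 6.82 ± 0.07 SE, edgeR adjusted p = 1.2e-16). LAMA1, the α chain of embryonic basement membrane, stood at 0, 0.0469 and 0.0485 CPM in MB157 and 188, 168 and 198 CPM in MB157R and was 5811-fold higher. DAG1, which encodes the laminin receptor dystroglycan, was 3.84-fold lower (log2 fold change -1.94 ± 0.041 SE, edgeR adjusted p = 6.1e-14). Of 20 tested collagen chains, 12 were at least 2-fold higher and 4 at least 2-fold lower, against 17 and 15 without the filter. COL17A1, the hemidesmosome collagen, stood at 0.517, 0.610 and 0.485 CPM in MB157 and 482, 459 and 573 CPM in MB157R and was 939-fold higher (log2 fold change 9.86 ± 0.13 SE, edgeR adjusted p = 7.3e-16). COL7A1, the anchoring fibril chain, was 27-fold higher. COL9A3, a chain of cartilage collagen, was 17-fold lower (log2 fold change -4.09 ± 0.074 SE, edgeR adjusted p = 1.5e-14).

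Enzymes that cut or crosslink the matrix were mostly higher. Of the 38 tested among 46 listed, 34 were higher, 3 were lower and 1 was not called, with 24 higher and 1 lower members differing by at least 2-fold (30 higher and 2 lower without the filter on low counts). MMP14, the membrane-bound collagenase, stood at 0.517, 0.469 and 0.630 CPM in MB157 and 800.0, 789 and 902 CPM in MB157R and was 1540.5-fold higher (log2 fold change 10.58 ± 0.095 SE, edgeR adjusted p = 5.9e-17). MMP10, a stromelysin, stood at 105, 110.4 and 70.6 CPM in MB157R with 0 counts in MB157 and lay at least 3669-fold higher. TGM2, which crosslinks matrix proteins, stood at 0.0304, 0 and 0 CPM in MB157 and 563, 570.3 and 594 CPM in MB157R, with a ratio of MB157R to MB157 of 67300 (95% counting interval 12100 to 2660000). PLOD1, a collagen lysyl hydroxylase, was the member at least 2-fold lower, 414 ± 13.8 CPM against 92.5 ± 2.88 CPM.

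Genes on the EGFR family list were mostly higher in MB157R. This list holds receptors and ligands and also the regulators ERRFI1, LRIG1 and LRIG3. Of the 13 tested among 17 listed, 12 were higher, 1 was lower and 0 were not called, with 10 higher and 1 lower members differing by at least 2-fold (13 higher and 3 lower without the filter on low counts). Among ligands, EREG (epiregulin) stood at 0 counts in each MB157 library and 253, 256 and 289 CPM in MB157R and lay at least 10394-fold higher. AREG (amphiregulin) stood at 0.243, 0.375 and 0.436 CPM in MB157 and 99.9, 106 and 107 CPM in MB157R and was 297-fold higher (log2 fold change 8.17 ± 0.095 SE, edgeR adjusted p = 3.0e-16). TGFA was 3.58-fold higher. Among receptors, EGFR stood at 26.7, 25.8 and 25.8 CPM in MB157 and 254, 211 and 284 CPM in MB157R and was 9.55-fold higher (log2 fold change 3.26 ± 0.091 SE, edgeR adjusted p = 9.8e-13), ERBB2 was 1.31-fold higher, and ERBB3, a receptor for neuregulins, was 2.86-fold lower (log2 fold change -1.51 ± 0.044 SE, edgeR adjusted p = 1.6e-12). The other receptor tyrosine kinases and their ligands were mixed, with 10 of 26 at least 2-fold higher and 6 at least 2-fold lower (15 higher and 10 lower without the filter on low counts). MET, the receptor for hepatocyte growth factor, stood at 21.1, 22.9 and 22.8 CPM in MB157 and 825, 783 and 894 CPM in MB157R and was 37.4-fold higher (log2 fold change 5.22 ± 0.059 SE, edgeR adjusted p = 2.7e-16). IGF2, an imprinted insulin-like growth factor, stood at 0.639, 0.258 and 0.436 CPM in MB157 and 353, 368 and 383 CPM in MB157R and was 827-fold higher. FGFR4 (79.8 ± 2.55 CPM against 1.82 ± 0.269 CPM), PDGFRA (27 ± 1.45 CPM against 3.16 ± 0.370 CPM) and FLT4 (33.6 ± 0.437 CPM against 0 counts), the receptor for VEGFC, were lower, while VEGFC (1.25 ± 0.310 CPM against 53.2 ± 0.795 CPM) was higher.

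MAPK feedback and output genes were mostly higher. Of the 25 tested among 30 listed, 19 were higher, 5 were lower and 1 was not called, with 14 higher and 2 lower members differing by at least 2-fold. FOSL1, the AP-1 subunit FRA1, stood at 2.25, 2.16 and 3.13 CPM in MB157 and 390.5, 386 and 423 CPM in MB157R and was 159-fold higher (log2 fold change 7.31 ± 0.086 SE, edgeR adjusted p = 3.3e-16). DUSP6, the phosphatase that inactivates ERK, stood at 3.32, 3.92 and 2.79 CPM in MB157 and 128, 125 and 121 CPM in MB157R and was 37.3-fold higher (log2 fold change 5.22 ± 0.078 SE, edgeR adjusted p = 2.4e-15). SPRY4, a feedback inhibitor, was 51.8-fold higher, and PHLDA1 was 10.2-fold higher. MYEOV (31 ± 2.25 CPM against 5.62 ± 0.666 CPM) and ATF3 (15.9 ± 0.603 CPM against 7.64 ± 0.0973 CPM) were lower. Of 14 tested SRC family and focal adhesion kinase genes, 8 were at least 2-fold higher and 0 at least 2-fold lower (11 higher and 1 lower without the filter on low counts). PTK2B, which encodes the focal adhesion kinase PYK2, was 13.5-fold higher (log2 fold change 3.74 ± 0.063 SE, edgeR adjusted p = 7.3e-15), PXN (paxillin) was 4.37-fold higher, and YES1 was 1.77-fold lower.

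The AP-1 site TGANTCA, bound by FOS and JUN proteins, was found in 284 of the 6603 promoter windows (4.3%). It occurred in 61 of 625 windows of genes at least 4-fold higher in MB157R (9.76%) and in 24 of 423 windows of genes at least 4-fold lower (5.67%). Of the 284 genes with the site, 88 were at least 2-fold higher (31%) and 41 at least 2-fold lower (14.4%), beside 18.3% and 17.2% of genes without it. These shares are descriptions and carry no test. The same stretch is shown for LCN2, KCNJ15 and FST, since these genes were near the floor or low in MB157 and abundant in MB157R, with the site in capitals. They lie at chr9:128149203-128149452 (+ strand), chr21:38272258-38272507 (+ strand) and chr5:53480379-53480628 (+ strand), and the site begins 52, 35 and 160 bases before the start site.
LCN2: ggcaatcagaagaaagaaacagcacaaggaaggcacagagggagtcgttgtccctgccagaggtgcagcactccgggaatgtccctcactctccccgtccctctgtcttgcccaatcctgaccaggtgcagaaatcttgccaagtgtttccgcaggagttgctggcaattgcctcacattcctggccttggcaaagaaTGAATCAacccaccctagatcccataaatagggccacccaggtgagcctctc
KCNJ15: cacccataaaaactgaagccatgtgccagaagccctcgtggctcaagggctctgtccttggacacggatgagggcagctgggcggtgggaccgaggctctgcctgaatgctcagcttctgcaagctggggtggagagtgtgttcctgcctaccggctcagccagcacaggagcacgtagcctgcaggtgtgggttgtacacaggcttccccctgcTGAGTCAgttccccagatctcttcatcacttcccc
FST: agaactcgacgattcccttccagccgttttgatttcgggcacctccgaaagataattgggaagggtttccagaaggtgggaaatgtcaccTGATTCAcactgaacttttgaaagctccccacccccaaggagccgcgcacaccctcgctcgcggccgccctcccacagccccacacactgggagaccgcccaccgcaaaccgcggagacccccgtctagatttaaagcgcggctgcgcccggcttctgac
KCNJ15, an inwardly rectifying potassium channel gene, stood at 0.0304, 0.0469 and 0 CPM in MB157 and 241, 254 and 242 CPM in MB157R with a ratio of MB157R to MB157 of 9550 (95% counting interval 3270 to 46300). FST, which encodes the activin antagonist follistatin, stood at 0.274, 0.0703 and 0.145 CPM in MB157 and 152, 140.2 and 155 CPM in MB157R and was 913-fold higher (log2 fold change 9.89 ± 0.12 SE, edgeR adjusted p = 5.2e-16).

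TGF-β and BMP genes moved in both directions. Of the 39 tested among 42 listed, 17 were at least 2-fold higher and 9 at least 2-fold lower. On the activin side, INHBA, the activin A subunit, stood at 2.98, 3.14 and 3.71 CPM in MB157 and 319, 324 and 392 CPM in MB157R and was 105-fold higher (log2 fold change 6.71 ± 0.10 SE, edgeR adjusted p = 3.5e-15), and SMAD3, its signal transducer, was 9.44-fold higher (log2 fold change 3.24 ± 0.051 SE, edgeR adjusted p = 4.1e-15). On the BMP side, BMP7 stood at 81.8, 77.1 and 81 CPM in MB157 and 0 counts in each MB157R library and was at least 3562-fold lower, and the BMP target genes ID4 (69.1 ± 3.51 CPM against 0.0725 ± 0.0443 CPM) and ID2 (36.3 ± 2.89 CPM against 2.07 ± 0.280 CPM) were lower, while BMP2 (0.0482 ± 0.0643 CPM against 13.3 ± 0.390 CPM) and the BMP antagonist NOG (0.0263 ± 0.0245 CPM against 14.2 ± 0.861 CPM) were higher. Wnt genes also lay on both sides, with 13 at least 2-fold higher and 10 lower of 31 (15 higher and 16 lower without the filter on low counts). WNT5A, a ligand of noncanonical signalling, stood at 0.0609, 0.0938 and 0.0970 CPM in MB157 and 108, 104 and 112 CPM in MB157R and was 1288-fold higher, and the antagonist gene SFRP1 stood at 417, 397 and 407 CPM in MB157 and 30.4, 33.4 and 34.5 CPM in MB157R and was 12.4-fold lower (log2 fold change -3.63 ± 0.048 SE, edgeR adjusted p = 9.5e-16).

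In the Hippo list, 10 of 33 tested genes were at least 2-fold higher and 2 lower. YAP1, the coactivator that Hippo kinases restrain, stood at 149, 156 and 153 CPM in MB157 and 541, 522 and 554 CPM in MB157R and was 3.53-fold higher (log2 fold change 1.82 ± 0.037 SE, edgeR adjusted p = 4.2e-14), and the scaffold AMOT was 1658-fold lower. Of the 39 tested among 47 listed JAK-STAT and cytokine receptor genes, 32 were higher, 6 were lower and 1 was not called. IL6ST, the shared receptor chain gp130, was 8.92-fold higher (log2 fold change 3.16 ± 0.04 SE, edgeR adjusted p = 6.7e-16), and IL7R was at least 1157-fold higher. Prostaglandin and leukotriene genes leaned the same way, with 11 of 17 at least 2-fold higher and 1 lower (16 higher and 7 lower without the filter on low counts). PTGS2, the inducible cyclooxygenase, stood at 0.122, 0.0469 and 0.267 CPM in MB157 and 166, 144 and 174 CPM in MB157R and was 1112-fold higher (log2 fold change 10.09 ± 0.16 SE, edgeR adjusted p = 4.7e-15). PPARG, a lipid-sensing nuclear receptor, stood at 0.761, 0.844 and 1.04 CPM in MB157 and 121, 127 and 139 CPM in MB157R and was 146-fold higher (log2 fold change 7.18 ± 0.092 SE, edgeR adjusted p = 7.1e-16), while PPARA (35.6 ± 0.477 CPM against 15.7 ± 2.49 CPM) and the retinoic acid receptor gene RARG (71.4 ± 3.28 CPM against 23.8 ± 0.850 CPM) were lower. Among 46 axon guidance genes, EPHA2 (35.9 ± 0.718 CPM against 825 ± 13.6 CPM) and SEMA3A (0.811 ± 0.142 CPM against 259.9 ± 14.5 CPM) were higher, and EPHB3 (139 ± 3.36 CPM against 7.76 ± 0.949 CPM) and SEMA3E (28.6 ± 2.86 CPM against 0.347 ± 0.124 CPM) were lower. PI3K, AKT and mTOR genes had 14 higher and 14 lower members and a median log2 fold change of -0.03. Within this list the lipid phosphatase INPP4B was 42.6-fold higher and the stress-induced inhibitor SESN3 was 1393-fold lower.

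Genes of replication and mitosis differed by small amounts in most cases. Of 49 DNA replication genes, 28 were higher and 13 lower, with 9 and 1 by at least 2-fold and a median log2 fold change of 0.37. Of 51 genes of mitosis and cytokinesis, 12 were higher and 31 lower, with 0 and 5 by at least 2-fold and a median log2 fold change of -0.24. MKI67, the proliferation antigen, was 1.25-fold higher (log2 fold change 0.32 ± 0.06 SE, edgeR adjusted p = 2.3e-04). CDC25B, a phosphatase that starts mitosis, was 4.54-fold lower (log2 fold change -2.18 ± 0.044 SE, edgeR adjusted p = 4.5e-14), and the mitotic kinase gene AURKA was 2.51-fold lower (log2 fold change -1.33 ± 0.034 SE, edgeR adjusted p = 3.6e-13). Of 37 G1 cyclins, CDKs and CDK inhibitors, 15 were higher and 21 lower, with 4 and 9 by at least 2-fold. CDKN1A, the CDK inhibitor p21, stood at 18.4, 16.8 and 16.3 CPM in MB157 and 301, 299 and 289 CPM in MB157R and was 17.3-fold higher (log2 fold change 4.11 ± 0.047 SE, edgeR adjusted p = 2.8e-16). E2F3, an activator of S phase genes, stood at 88.6, 85.7 and 90.8 CPM in MB157 and 993, 995 and 969.7 CPM in MB157R and was 11.2-fold higher (log2 fold change 3.48 ± 0.038 SE, edgeR adjusted p = 1.9e-16). RB1, the repressor of E2F factors, stood at 28.3, 31.4 and 31.5 CPM in MB157 and 3.13, 2.90 and 3.75 CPM in MB157R and was 9.33-fold lower (log2 fold change -3.22 ± 0.092 SE, edgeR adjusted p = 1.2e-12). CDKN2C (55 ± 0.656 CPM against 4.55 ± 0.121 CPM), E2F2 (52.1 ± 0.698 CPM against 3.23 ± 0.293 CPM) and CDKN1B (102 ± 0.863 CPM against 31.2 ± 1.55 CPM) were lower too.

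Among genes of DNA repair, some were higher and others lower in MB157R. The list had 9 of 62 members at least 2-fold higher (14.5%) and 5 lower (8.06%), beside 20.7% and 18.1% of all tested genes. XPC (54.8 ± 0.936 CPM against 20.1 ± 1.22 CPM), the damage sensor of nucleotide excision repair, was lower. FANCD2, the hub of interstrand crosslink repair, was 3.94-fold higher (log2 fold change 1.98 ± 0.039 SE, edgeR adjusted p = 3.4e-14), and OGG1, which removes oxidized guanine, was 5.26-fold higher. Among apoptosis regulators, MCL1 (994 ± 3.77 CPM against 527 ± 21.4 CPM) and BNIP3 (48.2 ± 3.73 CPM against 12.7 ± 1.37 CPM) were lower, and BIK (3.58 ± 0.217 CPM against 41 ± 1.17 CPM) and CASP10 (0.0995 ± 0.0400 CPM against 20.4 ± 1.34 CPM) were higher. Of 74 chromatin regulators, 8 were at least 2-fold higher (10.8%) and 12 lower (16.2%). HMGA2, a fetal chromatin protein, stood at 2.13, 2.23 and 2.28 CPM in MB157 and 216, 213 and 249 CPM in MB157R and was 102-fold higher (log2 fold change 6.67 ± 0.084 SE, edgeR adjusted p = 5.8e-16). SMARCA2, an ATPase of SWI/SNF remodellers, was 4.89-fold lower (log2 fold change -2.29 ± 0.059 SE, edgeR adjusted p = 4.7e-13), and SIRT2, a deacetylase, was 5.76-fold lower.

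Cytosolic ribosomal protein genes were lower in MB157R as a group. Of the 81 tested among 85 listed, 4 were higher, 74 were lower and 3 were not called, with 0 higher and 45 lower members differing by at least 2-fold and a median log2 fold change of -1.17. Their summed level was 84500 CPM in MB157 and 38600 CPM in MB157R. RPL7 stood at 3123, 3183 and 3165 CPM in MB157 and 505, 506 and 557 CPM in MB157R and was 6.04-fold lower (log2 fold change -2.59 ± 0.044 SE, edgeR adjusted p = 8.2e-15). RPL28 stood at 1423, 1435 and 1469 CPM in MB157 and 191, 198 and 205 CPM in MB157R and was 7.28-fold lower (log2 fold change -2.86 ± 0.039 SE, edgeR adjusted p = 1.1e-15). RPLP0, a stalk protein often used as a reference gene, stood at 2726, 2760.1 and 2798 CPM in MB157 and 1245, 1229 and 1383 CPM in MB157R and was 2.15-fold lower (log2 fold change -1.10 ± 0.045 SE, edgeR adjusted p = 5.0e-11). RPL39L, a paralog used in few tissues, stood at 19.8, 21.1 and 20.4 CPM in MB157 and 0 counts in each MB157R library and was at least 915-fold lower. The members that were higher, named after their values were seen, were RPL32 (1377 ± 38.7 CPM against 1877 ± 82.2 CPM), RPL23A (793 ± 7.44 CPM against 949.9 ± 23.4 CPM), RPL27 (358 ± 14.8 CPM against 448 ± 25.3 CPM) and RPS27L (10.5 ± 0.837 CPM against 15.9 ± 0.671 CPM). The size of the difference varied between members, and RPLP0 and RPL28 belong to the same ribosomal subunit. CPM are shares of a library, so less of these transcripts and more of others cannot be told apart. Ribosomal protein genes have many processed copies in the genome, and how reads were divided between a gene and its copies was not tested. Mitochondrial ribosomal proteins (24 higher and 42 lower of 76, median log2 fold change of -0.24) and ribosome biogenesis factors (14 higher and 23 lower of 45, median log2 fold change of -0.17) lay closer to the other genes. NOP56, a snoRNP core protein, was 2.53-fold lower (log2 fold change -1.34 ± 0.051 SE, edgeR adjusted p = 2.1e-11). The proteasome leaned the opposite way, with 24 of 37 subunits higher and a median log2 fold change of 0.39.

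Of 20 aminoacyl-tRNA synthetase entries, which charge tRNAs with amino acids, 18 carry superseded symbols and stand outside the filtered table. With all entries of a mean count of at least 5 tested instead, 8 were lower and 8 higher. AARS stood at 311, 308 and 320.0 CPM in MB157 and 107, 115 and 123 CPM in MB157R, and TARS at 224 ± 6.06 and 336 ± 7.89 CPM, both named after their values were seen. Chaperones showed no common direction. Of the 38 tested among 40 listed, 16 were higher and 19 lower. HSPA1A, the inducible HSP70, stood at 674, 615 and 714 CPM in MB157 and 6.55, 8.11 and 7.51 CPM in MB157R and was 90.4-fold lower (log2 fold change -6.50 ± 0.078 SE, edgeR adjusted p = 3.9e-16), HSPB1 was 2.61-fold lower, and HSPH1 was 2.86-fold higher. HSPA1A has a near-identical neighbour, HSPA1B, and reads shared with it could be counted for either. In the endoplasmic reticulum, HSPA5, the chaperone BiP, stood at 581, 585 and 611 CPM in MB157 and 1332, 1491 and 1328 CPM in MB157R and was 2.34-fold higher (log2 fold change 1.22 ± 0.047 SE, edgeR adjusted p = 2.5e-11). The stress regulator NUPR1 had 86.4, 84.2 and 93.4 CPM in MB157 and 0 counts in each MB157R library and was at least 3932-fold lower, and SLC7A11, the cystine importer, was 9.74-fold higher (log2 fold change 3.28 ± 0.067 SE, edgeR adjusted p = 4.7e-14).

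Genes of glycolysis did not share a direction, with 14 higher and 12 lower of 31 and a median log2 fold change of -0.01. SLC16A3, the lactate exporter MCT4, stood at 11.3, 12.4 and 10.4 CPM in MB157 and 321, 319.6 and 303 CPM in MB157R and was 27.7-fold higher (log2 fold change 4.79 ± 0.058 SE, edgeR adjusted p = 4.0e-16). PKM, which encodes pyruvate kinase, stood at 605, 611 and 616 CPM in MB157 and 1734, 1705 and 1615 CPM in MB157R and was 2.76-fold higher (log2 fold change 1.46 ± 0.037 SE, edgeR adjusted p = 3.4e-13). PDK3, a kinase that inhibits the mitochondrial enzyme pyruvate dehydrogenase, stood at 553, 561 and 515 CPM in MB157 and 46.2, 41.5 and 47.1 CPM in MB157R and was 12.1-fold lower (log2 fold change -3.59 ± 0.053 SE, edgeR adjusted p = 2.4e-15), and GPI was 3.27-fold lower. Mitochondrial genes leaned lower. MPC1, a subunit of the pyruvate carrier, stood at 57.6, 61.2 and 58.2 CPM in MB157 and 11.4, 11.6 and 11 CPM in MB157R and was 5.20-fold lower (log2 fold change -2.38 ± 0.052 SE, edgeR adjusted p = 8.2e-14), and MPC2 was 2.62-fold lower. Of the 57 tested among 63 listed respiratory chain and ATP synthase genes, 13 were higher, 37 were lower and 7 were not called, with 0 higher and 12 lower members differing by at least 2-fold and a median log2 fold change of -0.48. The complex III subunit genes UQCRFS1 (321, 358 and 309 CPM in MB157 and 48.3, 50.7 and 48.7 CPM in MB157R) and UQCRB (367, 379 and 372 CPM in MB157 and 70.1, 72.2 and 74.8 CPM in MB157R) were 6.69-fold lower and 5.15-fold lower. ATP synthase subunits stand in the count table under older symbols and are not among the tested genes. HIF1A was 3.42-fold higher (log2 fold change 1.77 ± 0.036 SE, edgeR adjusted p = 4.1e-14), and EPAS1, which encodes HIF2A, was 5.03-fold higher.

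Some genes of amino acid metabolism were lower in MB157R and others were higher. PYCR1, the mitochondrial enzyme of the last step of proline synthesis, stood at 269, 250.2 and 260.2 CPM in MB157 and 0, 0.0484 and 0 CPM in MB157R, with a ratio of MB157 to MB157R of 17300 (95% counting interval 4800 to 143000). GLDC, which cleaves glycine, stood at 50.5, 52.5 and 47.1 CPM in MB157 and 0.681, 0.242 and 0.227 CPM in MB157R and was 131-fold lower (log2 fold change -7.03 ± 0.16 SE, edgeR adjusted p = 1.5e-13). ALDH1L2, a mitochondrial folate enzyme, was 84.1-fold lower. ASS1, which makes argininosuccinate for arginine synthesis, stood at 350.3, 342 and 341 CPM in MB157 and 83.4, 80.0 and 82.4 CPM in MB157R and was 4.21-fold lower (log2 fold change -2.07 ± 0.034 SE, edgeR adjusted p = 6.6e-15), while ASL, the next enzyme, was 2.33-fold higher and ARG2, an arginase, was 7.08-fold higher (log2 fold change 2.82 ± 0.066 SE, edgeR adjusted p = 1.8e-13). Over the list of serine, glycine, proline and one-carbon metabolism, 5 of 40 genes were at least 2-fold higher (12.5%) and 9 lower (22.5%). The shares over all tested genes were 20.7% and 18.1%. In nucleotide salvage, UPP1 was 5.13-fold higher and MTAP was 2.89-fold higher (log2 fold change 1.53 ± 0.037 SE, edgeR adjusted p = 2.2e-13).

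SCD and FASN, enzymes of fatty acid synthesis, were lower in MB157R. Of the 56 tested among 67 listed fatty acid and lipid genes, 18 were higher, 32 were lower and 6 were not called, with 11 higher and 16 lower members differing by at least 2-fold. SCD, the stearoyl-CoA desaturase, stood at 1322, 1328 and 1350.1 CPM in MB157 and 383, 386 and 402 CPM in MB157R and was 3.42-fold lower (log2 fold change -1.77 ± 0.035 SE, edgeR adjusted p = 3.3e-14). FASN, the fatty acid synthase, was 2.05-fold lower (log2 fold change -1.03 ± 0.062 SE, edgeR adjusted p = 2.6e-09). ACSL1, which activates fatty acids, stood at 253, 266 and 268 CPM in MB157 and 7.06, 8.03 and 8.39 CPM in MB157R and was 33.5-fold lower (log2 fold change -5.07 ± 0.057 SE, edgeR adjusted p = 2.3e-16), while ACSL4 was 5.73-fold higher. LPL, the lipase that releases fatty acids from lipoproteins, stood at 0.152, 0.211 and 0.121 CPM in MB157 and 127, 133 and 141 CPM in MB157R and was 827-fold higher, and MGLL was 43.7-fold higher. In the cholesterol list, 7 of 33 genes were at least 2-fold higher and 6 lower, shares close to those of all tested genes. SREBF1, a regulator of lipid synthesis genes, stood at 253, 244 and 238 CPM in MB157 and 104, 93.9 and 91.7 CPM in MB157R and was 2.53-fold lower (log2 fold change -1.34 ± 0.047 SE, edgeR adjusted p = 1.0e-11). The sterol exporters ABCA1 (7.28 ± 0.390 CPM against 70.3 ± 7.14 CPM) and ABCG1 (2.36 ± 0.354 CPM against 44.4 ± 4.01 CPM) were higher.

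Genes that store and carry metals differed in both directions. FTH1, the ferritin heavy chain, stood at 681, 752 and 611 CPM in MB157 and 1895, 1940.3 and 1773 CPM in MB157R and was 2.74-fold higher (log2 fold change 1.46 ± 0.064 SE, edgeR adjusted p = 9.8e-11), while TF, the iron carrier transferrin, had 45.6, 47.2 and 43.3 CPM in MB157 and 0 counts in each MB157R library and was at least 2025-fold lower. The metallothionein gene MT2A stood at 5.57, 4.60 and 5.77 CPM in MB157 and 297, 317 and 325 CPM in MB157R and was 58.9-fold higher (log2 fold change 5.88 ± 0.068 SE, edgeR adjusted p = 3.1e-16), and MT1X was 3.78-fold higher, though metallothionein genes resemble each other closely. Of 44 tested NRF2 and glutathione genes, 16 were at least 2-fold higher and 5 lower (18 higher and 9 lower without the filter on low counts). GSTP1 was 1.75-fold higher, AKR1C3, a ketosteroid reductase, was 14.7-fold higher, and PRDX4 was 3.19-fold lower. CYP1B1, an estrogen hydroxylase, stood at 846, 857 and 823 CPM in MB157 and 2.20, 2.57 and 2.18 CPM in MB157R and was 363-fold lower (log2 fold change -8.51 ± 0.058 SE, edgeR adjusted p = 2.5e-17). Of 65 glycosyltransferases, 26 were at least 2-fold higher and 10 lower. FUT8, which adds core fucose, was 62.2-fold higher (log2 fold change 5.95 ± 0.06 SE, edgeR adjusted p = 1.2e-16), GALNT5, which starts mucin glycans, had a ratio of MB157R to MB157 of 5670 (95% counting interval 1570 to 46900), and MGAT3, which adds bisecting sugars, was 83.2-fold lower.

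**Figure D2:**
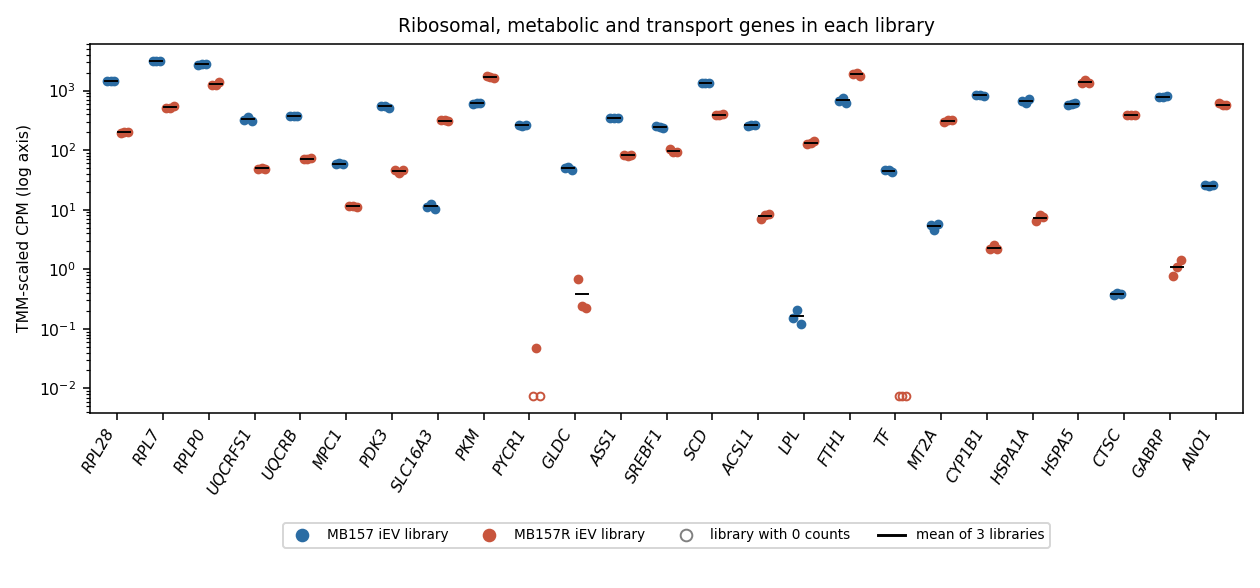
TMM-scaled CPM on a log axis of 25 ribosomal, metabolic and transport genes in each of the 3 MB157 iEV libraries (blue) and 3 MB157R iEV libraries (red), with bars at the group mean where no library was at 0; open circles at the lower edge are libraries with 0 counts and have no height of their own. SLC16A3, PKM, LPL, FTH1, MT2A, HSPA5, CTSC and ANO1 are higher in MB157R and the other 17 genes are higher in MB157, with no overlap between the lines.

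Channel genes differed in both directions. Of 76 tested ion channel genes, 25 were at least 2-fold higher and 23 lower (57 higher and 87 lower without the filter on low counts), and their summed level was 2820 CPM in MB157 and 3330 CPM in MB157R. GABRP, a GABA receptor subunit, stood at 786, 789 and 806 CPM in MB157 and 0.771, 1.09 and 1.44 CPM in MB157R and was 721-fold lower (log2 fold change -9.48 ± 0.09 SE, edgeR adjusted p = 7.9e-17). ANO1, a calcium-activated chloride channel, stood at 25.5, 24.5 and 25.5 CPM in MB157 and 608, 574 and 569 CPM in MB157R and was 23.2-fold higher (log2 fold change 4.53 ± 0.044 SE, edgeR adjusted p = 9.2e-17). ABCA3, a lipid transporter, had 73.8 ± 2.65 CPM against 0 counts, and the amino acid transporter SLC38A5 was 36.7-fold higher. Of 53 lysosome and cathepsin genes, 20 were higher and 27 lower, with 12 and 9 by at least 2-fold and a median log2 fold change of -0.11. The 2-fold shares, 22.6% and 17.0%, were close to the 20.7% and 18.1% of all tested genes. CTSC, which activates serine proteases, stood at 0.365, 0.399 and 0.388 CPM in MB157 and 388, 383 and 391 CPM in MB157R and was 1009-fold higher (log2 fold change 9.96 ± 0.063 SE, edgeR adjusted p = 2.3e-17), and CTSZ was 100.4-fold higher. LAMP1, a protein of the lysosomal membrane, was lower (579 ± 3.29 CPM against 295 ± 8.69 CPM). In autophagy, MAP1LC3A had a ratio of MB157 to MB157R of 1440 (95% counting interval 493 to 7000) and GABARAPL2 was 3.80-fold lower, while ATG7 was 3.27-fold higher. For secretion, ANXA1 (37.5 ± 3.08 CPM against 712 ± 9.61 CPM) and RAB27B (1.98 ± 0.197 CPM against 37.8 ± 0.432 CPM) were higher, and SYT7 (189 ± 7.52 CPM against 2.50 ± 0.551 CPM) and RAB25 (85.9 ± 3.73 CPM against 3.64 ± 0.367 CPM) were lower.

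Related genes of the cytoskeleton differed in opposite directions. MYH9, the heavy chain of nonmuscle myosin IIA, stood at 31.2, 27.3 and 29.3 CPM in MB157 and 1360.4, 1156 and 1368 CPM in MB157R and was 44.3-fold higher (log2 fold change 5.47 ± 0.076 SE, edgeR adjusted p = 1.4e-15), and its paralog MYH14 was 4.93-fold lower (log2 fold change -2.30 ± 0.053 SE, edgeR adjusted p = 1.4e-13). ACTB stood at 2453, 2467 and 2505 CPM in MB157 and 5217, 5237 and 4946 CPM in MB157R and was 2.07-fold higher (log2 fold change 1.05 ± 0.037 SE, edgeR adjusted p = 9.1e-12), while ACTG1 stood at 7459, 7601 and 7805 CPM in MB157 and 2859, 2865 and 2713 CPM in MB157R and was 2.71-fold lower (log2 fold change -1.44 ± 0.039 SE, edgeR adjusted p = 6.3e-13). These actin genes are nearly identical in their coding parts, and each also has processed copies. LCP1, the leukocyte plastin, was 55.4-fold higher. Among tubulins, TUBB6 stood at 114, 115 and 118 CPM in MB157 and 2.86, 2.71 and 2.76 CPM in MB157R and was 41.7-fold lower (log2 fold change -5.38 ± 0.055 SE, edgeR adjusted p = 1.2e-16), TUBA4A was 13.2-fold higher, and TUBB was 1.16-fold higher. DPYSL3, which binds tubulin dimers, was 3818-fold higher. RAC2, a GTPase of blood cells, stood at 1.22, 1.01 and 1.04 CPM in MB157 and 101, 107 and 110.3 CPM in MB157R and was 97.4-fold higher (log2 fold change 6.61 ± 0.076 SE, edgeR adjusted p = 2.9e-16), DOCK2, its activator, was 3197-fold higher, and VAV1, another exchange factor, was 72-fold lower (log2 fold change -6.18 ± 0.12 SE, edgeR adjusted p = 2.9e-14).

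Among regulators, numbered zinc finger genes, many of which encode KRAB repressors of transposons, were mostly lower. Of the 420 tested among 529 listed, 75 were higher, 297 were lower and 48 were not called, with 21 higher and 149 lower members differing by at least 2-fold and a median log2 fold change of -0.60. With every entry tested, the list had 33 higher and 184 lower without the filter on low counts. ZNF146, the most abundant, stood at 505, 519.6 and 522 CPM in MB157 and 129, 127 and 124 CPM in MB157R and was 4.06-fold lower (log2 fold change -2.02 ± 0.034 SE, edgeR adjusted p = 8.3e-15). Each of the 31 tested HOX genes, which hold positional identity, differed by at least 2-fold, 25 higher and 6 lower (28 higher and 10 lower without the filter on low counts). HOXB3 had 0 counts in each MB157 library and 75.7, 76.3 and 70.9 CPM in MB157R and lay at least 2885-fold higher, HOXA9 was 158-fold higher, and HOXC10 had 35.5, 30.4 and 33.9 CPM in MB157 and 0 counts in each MB157R library and was at least 1478-fold lower. Of 22 imprinted genes, 5 were at least 2-fold higher and 11 lower. MEST stood at 255, 267 and 277 CPM in MB157 and 16.2, 15.3 and 14.2 CPM in MB157R and was 17.5-fold lower (log2 fold change -4.13 ± 0.053 SE, edgeR adjusted p = 7.0e-16), PEG10 was 4.08-fold lower (log2 fold change -2.03 ± 0.042 SE, edgeR adjusted p = 5.0e-14), and GNAS was 2.28-fold lower. The antigen genes MAGEA3 (115 ± 0.891 CPM against 0.0152 ± 0.0263 CPM) and MAGEC2 (55.4 ± 1.65 CPM against 0 counts) were lower. Neural genes included UCHL1 (53.4 ± 1.25 CPM against 0 counts) and L1CAM (73.1 ± 1.39 CPM against 2.09 ± 0.227 CPM), which were lower, and CNTNAP2 (5.23 ± 0.818 CPM against 206 ± 3.79 CPM), which was higher. In the clock list, ARNTL2 (9.06 ± 0.314 CPM against 155 ± 4.05 CPM) and NPAS2 (2.18 ± 0.359 CPM against 29.4 ± 1.28 CPM) were higher and PER3 (15.8 ± 1.11 CPM against 3.23 ± 0.374 CPM) was lower.

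Of genes on none of the lists, 19.2% were at least 2-fold higher and 17.4% lower, beside 25.6% and 20.3% of listed genes. Among the strongest of them, ANP32A, a nuclear phosphoprotein gene, had 0 counts in each MB157 library and 325, 334 and 329 CPM in MB157R and lay at least 12816-fold higher. GDA, a guanine deaminase, stood at 0.0304, 0.117 and 0.0242 CPM in MB157 and 266, 266 and 345 CPM in MB157R and was 5100.3-fold higher. UCA1, a long noncoding RNA, was 2713-fold higher. In the other direction TTYH1, a chloride channel homologue, stood at 668, 663 and 664 CPM in MB157 and 0, 0 and 0.0412 CPM in MB157R, with a ratio of MB157 to MB157R of 44500 (95% counting interval 12300 to 368000), and S100A1 had 241 ± 8.28 CPM against 0.00756 ± 0.0131 CPM. CLDN8 had 83.6 ± 3.27 CPM against 0 counts and CHI3L1, a chitinase-like glycoprotein, had 85.3 ± 1.73 CPM against 0 counts.

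Differences were unevenly placed along the genome. Of the tested genes, 11347 had a position in RefSeq (GRCh38.p14). On chromosome 15, 38.8% of 353 genes were at least 2-fold higher and 4.53% lower, with a median log2 fold change of 0.79. Chromosomes 7 and 9 had 31.5% and 29.1% higher and 12.6% and 14.4% lower. On chromosome 19, 7.51% of 852 genes were at least 2-fold higher and 35.8% lower, with a median of -0.54, and chromosomes 16 and 20 had medians of -0.58 and -0.61. Numbered zinc finger genes such as ZNF98 and ZNF667 lie on chromosome 19, and how far that list and this chromosome share genes was not tested. On chromosome 8, 37.2% of 387 genes were at least 2-fold lower. These shares have no test, since neighbouring genes are not independent.

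Some genes with almost no reads in 1 of the lines and expression in the other lay side by side, and the runs named here were chosen after their values were seen. In MB157, 253 positioned genes had at most 3 counts over the group and at least 1 CPM in every MB157R library, and 31 of them fell into 9 runs of at least 3 neighbours, counted among genes that reached 1 CPM in every library of a line. In MB157R the same count was 420, with 48 genes in 13 runs. The run from SPG11 over B2M to TRIM69 (chromosome 15, 44562696 to 44767827) held 3 genes that summed to 759 CPM in MB157R and had 0 counts in MB157. B2M is the invariant chain that MHC class I needs at the cell surface, and SPG11 acts in lysosome renewal. PSPC1, ZMYM5 and ZMYM2 (chromosome 13, 19671205 to 20089115) summed to 176 CPM in MB157R, again with 0 counts in MB157. Part of the HOXB cluster, from HOXB2 to HOXB6 (chromosome 17, 48542655 to 48604986), had 2 counts over the 3 MB157 libraries and 139 CPM in MB157R. The genes from IL1A to IL36G (chromosome 2, 112773925 to 112985658) had 2 counts in MB157 and 1050 CPM in MB157R. In the other direction, 7 entries of the HOXC cluster from HOXC13-AS to HOXC-AS1 (chromosome 12, 53935328 to 54000010) summed to 69.5 CPM in MB157 with 1 count in MB157R, and the Iroquois genes IRX4, IRX2 and IRX1 (chromosome 5, 1877413 to 3601403) to 42.3 CPM with 0 counts. The state of the DNA in these regions was not tested.

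Promoter windows of genes with almost no reads in MB157 held fewer CG pairs than the median window, a description with no test. Windows of 45 genes with at most 3 counts in MB157 and at least 10 CPM in MB157R had a median of 12 CG pairs (quartiles 4 and 30), and windows of the 67 reverse genes had a median of 20 (11 and 31.5). The median of all 6603 windows was 27 (21 and 35). The NRF2 motif TGANNNNGC occurred in 43.4% of all windows and in 68.2% of the 22 windows of NRF2 and glutathione genes, and the sterol motif TCACNCCAC in 1.01% of all windows and in 1 of 20 windows of cholesterol genes.

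The inductions give levels of some of the same genes within 1 line. The genes shown are examples and differ between the inductions, so they do not show how named genes moved as a set. The inductions share the iEV libraries used above, so their values are set side by side only. SOX2 in MB157 changed 66.4% of the genes tested there and N1-ICD in MB157R 59.1%, in edgeR's quasi-likelihood test. In MB157 with SOX2, COL17A1 stood at 0.547 ± 0.0666 CPM without and 22.1 ± 1.95 CPM with induction (log2 fold change 5.32 ± 0.12 SE, edgeR adjusted p = 1.9e-15), and DUSP6 at 3.40 ± 0.578 CPM without and 40.3 ± 1.14 CPM with induction (log2 fold change 3.56 ± 0.083 SE, edgeR adjusted p = 1.8e-15). Both genes were higher with SOX2 and stood below their MB157R levels. C3 went the other way, with 45.9 ± 1.68 CPM without and 9.82 ± 0.502 CPM with induction (log2 fold change -2.22 ± 0.055 SE, edgeR adjusted p = 4.1e-15). TF, lower in MB157R, was also lower with SOX2, with 46.2 ± 2.03 CPM without and 2.05 ± 0.184 CPM with induction (log2 fold change -4.49 ± 0.074 SE, edgeR adjusted p = 3.0e-17). ASS1 was lower with SOX2, at 351 ± 5.07 CPM without and 172 ± 0.670 CPM with induction (log2 fold change -1.03 ± 0.027 SE, edgeR adjusted p = 8.6e-15), and RPL28 did not pass the test, at 1468 ± 23.6 CPM without and 1513 ± 25 CPM with induction (log2 fold change 0.04 ± 0.025 SE, edgeR adjusted p = 0.13).

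In MB157R with N1-ICD, CXCL1, IL1B and CSF2, each higher than in MB157, were higher still. CXCL1 stood at 601 ± 11.1 CPM without and 1233 ± 55.8 CPM with induction (log2 fold change 1.04 ± 0.044 SE, edgeR adjusted p = 1.2e-08), IL1B at 537 ± 36.8 CPM without and 989 ± 36.3 CPM with induction (log2 fold change 0.88 ± 0.053 SE, edgeR adjusted p = 2.1e-07), and CSF2 at 147 ± 3.06 CPM without and 334 ± 14.9 CPM with induction (log2 fold change 1.18 ± 0.042 SE, edgeR adjusted p = 2.9e-09). EREG, FOSL1 and COL17A1, each higher in MB157R than in MB157, were lower with N1-ICD. EREG stood at 266 ± 18.4 CPM without and 126 ± 3.08 CPM with induction (log2 fold change -1.08 ± 0.05 SE, edgeR adjusted p = 2.4e-08), FOSL1 at 400.3 ± 17.8 CPM without and 219 ± 5.29 CPM with induction (log2 fold change -0.87 ± 0.042 SE, edgeR adjusted p = 3.6e-08), and COL17A1 at 505 ± 57.1 CPM without and 175 ± 11.7 CPM with induction (log2 fold change -1.53 ± 0.076 SE, edgeR adjusted p = 4.6e-08). CYP1B1 and ASS1, both lower in MB157R than in MB157, were higher with N1-ICD, at 2.32 ± 0.226 CPM without and 45.7 ± 4.21 CPM with induction (log2 fold change 4.30 ± 0.098 SE, edgeR adjusted p = 1.2e-10) and 82 ± 1.67 CPM without and 179 ± 4.32 CPM with induction (log2 fold change 1.13 ± 0.037 SE, edgeR adjusted p = 1.7e-09). Of these, CYP1B1 belongs to the study's NOTCH signature, which drew in part on this N1-ICD comparison, so its rise is not an independent result. PKM was lower, at 1687 ± 71.9 CPM without and 855 ± 53.9 CPM with induction (log2 fold change -0.98 ± 0.054 SE, edgeR adjusted p = 1.0e-07). The following genes did not pass the test. EGFR stood at 249.6 ± 35.5 CPM without and 233 ± 20.5 CPM with induction (log2 fold change -0.10 ± 0.092 SE, edgeR adjusted p = 0.37), RPL28 at 198 ± 6.24 CPM without and 208 ± 7.01 CPM with induction (log2 fold change 0.07 ± 0.04 SE, edgeR adjusted p = 0.15) and RPL7 at 523 ± 26.2 CPM without and 515 ± 16.5 CPM with induction (log2 fold change -0.02 ± 0.045 SE, edgeR adjusted p = 0.7).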

How the data were processed

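RNA was sequenced from 3 biological replicates per group, and the paper describes a single resistant line as the source of MB157R. The authors aligned reads to hg38 with STAR and quantified genes with Salmon; the annotation is not given in the sources used here. The deposited count table holds estimated counts, of which 88% were whole at a tolerance of 1e-06, and rounding was applied before testing. The authors' filtered table of log2 CPM, made with edgeR 3.42.4 and limma 3.56.2, set the tested genes and was recomputed from the counts to within 5e-14. That filter removed genes of low mean TPM or count, uncharacterized or predicted genes and pseudogenes. It also lacks 703 entries of at least 10 CPM whose symbols are no longer current, which were not tested. Counts were fitted with edgeR 4.0.16 (R 4.3.3) by the quasi-likelihood test, with TMM factors from the tested genes and Benjamini-Hochberg adjustment over all 11435 genes, and the fit was tested on simulated data. Replicates of a group differed by 4.31 to 13.1 times sampling noise (chi-square per gene). Alternatives were edgeR's RLE scaling factors, library totals, wider filters, limma-voom (limma 3.58.1), DESeq2 1.42.0, a fit over 12 libraries, a replicate term, a test against 2-fold and leaving out each library.

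The comparison, the 74 lists used and the rules were chosen with earlier results of these data known. Named genes came from a rule: per list up to 4 called genes with the highest and 4 with the lowest log2 fold change among those at least 2-fold changed with a mean of 5 CPM or more, the 3 most abundant members, and 25 per direction of genes on no list with a mean of 20 CPM or more. The text names a part of these. Some genes and lists are not reported here. Counting intervals are at 95%.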

Additional observations from a re-analysis of the deposited data

How the results depend on the processing

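Under edgeR's RLE scaling factors, library totals, limma-voom, DESeq2 and the fit over 12 libraries, the genes called numbered between 10194 and 10324, and every list kept its counts within 1.5 times. Wider tables changed the totals by construction, since they added weakly expressed entries. With a mean count of at least 5 (16722 entries), 3850 genes were at least 2-fold higher and 3934 lower, and with every entry that had a count (21060) 4166 were higher and 4546 lower, with 7914 called lower. List medians then moved in 62 and 64 of 74 lists. Medians changed sign with every entry tested for collagen chains (from 2.28 to -0.05), keratins (from 1.61 to -0.15), nuclear hormone receptors (from 0.44 to -0.19) and protocadherins (from 0.42, 3 genes tested, to -0.89), besides 5 lists with medians within 0.07 of 0 both times. Leaving out 1 library at a time gave 10115 to 10246 genes called, 5041 to 5086 higher and 5040 to 5160 lower, with 2368 to 2387 at least 2-fold higher and 2049 to 2085 lower. Without MB157R replicate 3, 1 complement gene was at least 2-fold lower where none was before, and without MB157 replicate 2 or 3 the metallothionein and zinc transporter genes at least 2-fold lower fell from 2 to 1. List medians moved in 3 to 10 of 74 lists. That of cancer-testis antigens, of which only MAGEA3 and MAGEC2 are named above, went from -4.86 to -1.31 without MB157 replicate 2. The 14 tested members of that list include TEX10, TEX2, TEX261, TEX264, TEX30 and TEX9, so its median does not describe antigens alone. A test against a 2-fold difference called 2172 genes higher and 1836 lower. Of 682 genes under the naming rule, at least 675 kept direction and call in each setting. ABCF2, which is not described above, went from a log2 fold change of -0.08 to 0.0 with every entry tested, and the cause was not tested.

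The replicate numbers did not pair the samples, since deviations of same-numbered libraries correlated at 0.00306, -0.161 and -0.0404 over 11389 genes. With a replicate block 10247 genes were called, 5098 higher and 5149 lower, with 2373 at least 2-fold higher and 2072 lower, and list counts stayed within 1.5 times. No library correlated best with its own number. Depth limited statements on genes at or below 3 counts per group, where folds are bounds or ratios with wide intervals. Folds of genes just above that count are imprecise too.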
